A study of Mus musculus with 2 samples.

Results

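The 10 genes described here, Alb, Afp, Ttr, Trf, Apoa1, Apoa2, Apob, Fga, Fgb and Fgg, encode proteins that hepatoblasts, the progenitors of hepatocytes and bile duct cells, secrete into the blood plasma. They were taken by symbol from the GENCODE M21 annotation of the mouse genome (mm10), in which 21728 protein-coding symbols lie on chromosomes 1 to 19 and X. No measured value entered the choice, although the genes were picked with earlier results of these data known. Each gene was studied in a window made of its body and 30 kb on either side. The assay was DNase-seq, which sequences the ends that the enzyme DNase I leaves where DNA is exposed. It was run on entire mouse embryos at 11 days, strain B6NCrl, as 1 group of 2 biological replicates, and no treatment, allele, other age or isolated liver is among the samples. Per the labels, male and female embryos were pooled in both replicates, which have separate biosample entries but the same donor entry. The sources used here do not give how many embryos entered a pool.

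At this age the liver bud fills with hepatoblasts, while blood-forming cells settle among them. The yolk sac endoderm also makes many of the same plasma proteins. In hepatocytes, genes of this kind are known to be driven by the transcription factors of the FOXA, HNF1, HNF4, CEBP and ONECUT families acting at promoters and at more distant enhancers, and many of their promoters are poor in CpG dinucleotides.

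For each replicate there is a list of peaks, intervals of 150 bp with a score from 1 to 150. There is also a list of hotspots, regions of enriched cleavage, some of them narrower than a peak. The sources used here do not say how the score was made, so scores were used to rank peaks within a list and were set side by side, never divided. The percentile of a peak is the percentage of peaks in its own list with a lower score. A hotspot carries the −log10 of a q value, with a ceiling of 100. Replicate 1 had 204697 peaks and replicate 2 had 231103, and read depth is unknown because the files hold intervals and not reads. A shared peak is a replicate 1 peak that overlaps a replicate 2 peak by at least 1 bp. The labelled tissue could be checked on markers only in part. All 7 hepatoblast markers (Hnf4a, Hhex, Prox1, Dlk1, Foxa2, Onecut1 and Krt18) had a promoter peak in both replicates, but many of them are also active in other embryonic tissues. Of the marker genes of other sources of these transcripts, 5 of 7 yolk sac endoderm genes, 4 of 7 erythroid genes and 0 of 7 mature hepatocyte genes had one. Any promoter peak is common, at 70.3% of all protein-coding genes. At the 5′-most TSS alone the counts were 5 of 7 for hepatoblast, 3 of 7 for yolk sac and 3 of 7 for erythroid markers, against 65.2% of all genes.

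Most of these plasma protein genes had no peak at their promoter in these embryos. A peak within 500 bp of any annotated transcription start site (TSS) was present in both replicates at 3 of the 10 genes, Afp, Apob and Trf, where 70.3% of all protein-coding genes had one. At the 5′-most TSS the count was 2 of 10, Apob and Trf, against 65.2% of all genes. Alb, Ttr, Apoa1, Apoa2, Fga and Fgb had none in either replicate. Fgg had a promoter peak in replicate 2 only, with a score of 35 at 46 bp downstream of its TSS. The counts within single replicates were thus 3 in replicate 1 and 4 in replicate 2. A hotspot spanned the 5′-most TSS in both replicates at Trf, in replicate 1 only at Apob and in replicate 2 only at Fgg. The share of all genes with such a hotspot is not given here. In embryos measured whole, few cells with an open promoter and little opening per cell cannot be told apart, and a promoter without a peak is not shown to be closed in hepatoblasts.

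All 10 promoters were poor in CpG dinucleotides, and their count of promoter peaks was not above that of genes in the same CpG deciles. The observed-to-expected CpG ratio within 500 bp of the 5′-most TSS ran from 0.17 at Apoa1 and Fgg to 0.4 at Trf, with a median of 0.29, where the median of all genes was 0.56. The members fell into deciles 2 to 4 of this ratio, with 2, 3 and 5 genes. In these deciles 9.39%, 20% and 46.3% of all genes had a peak at the 5′-most TSS in both replicates, and over the 3 deciles together the share was 25.2%. With any TSS it was 38.5%. The members' 2 of 10 and 3 of 10 are near these shares and not above them. The pooled shares weight the 3 deciles about equally, while 5 of the 10 members lay in decile 4, which had the highest share. The part of CpG content in the members' counts was not tested. The comparison with the members' own deciles was chosen after their values were seen.

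**Figure D1:**
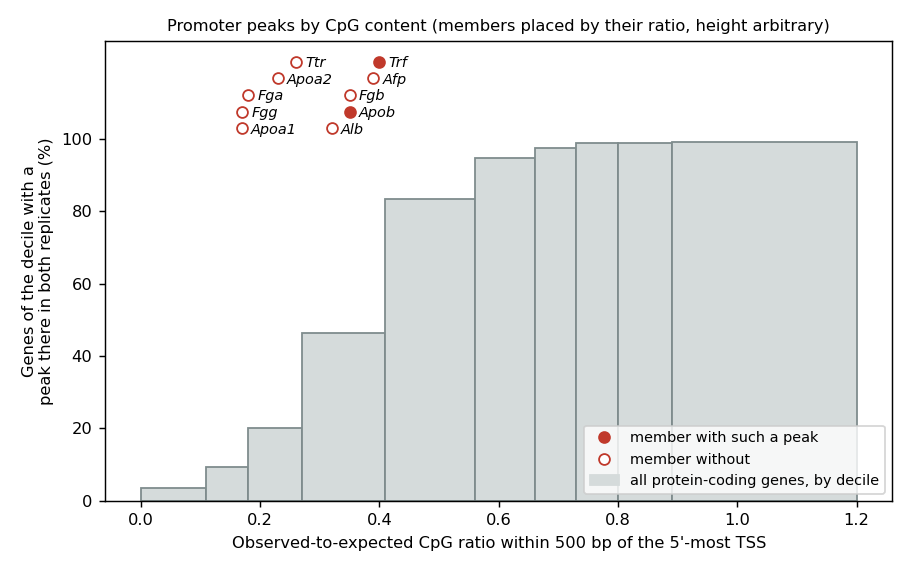
Percentage of protein-coding genes with a peak within 500 bp of the 5′-most TSS in both replicates (y axis), by decile of the observed-to-expected CpG ratio there (bars; x axis, ratio without unit). Circles above the bars stand at the ratio of each of the 10 plasma protein genes, at arbitrary height. All 10 lie between 0.17 and 0.4, 5 of them in the decile where the bars begin to rise steeply (46.3%), and the filled circles are Apob and Trf.

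Albumin and alpha-fetoprotein, the main plasma proteins of the adult and of the fetus, are carriers encoded side by side on the plus strand of chromosome 5, Alb at 90460897 to 90476602 and Afp at 90490737 to 90508907 (mm10). Neither had a peak or a hotspot at its 5′-most TSS in either replicate. The 250 bases before the start of each gene in RefSeq (GRCm38.p6, plus strand) are shown because both hold strings of liver factors although no peak was called there. Capitals mark matches, searched on both strands, to GTTAATNAT for HNF1, to TTGCNNAA for CEBP, and for FOXA either to TGTTTAC or to the variant TGTTTGC. Matches to the HNF4 string CAAAGTCCA would be marked too, as would those to ATCAATA for the ONECUT family, or to AGATAA for GATA factors, but there were none.
Alb, chr5:90460620-90460869: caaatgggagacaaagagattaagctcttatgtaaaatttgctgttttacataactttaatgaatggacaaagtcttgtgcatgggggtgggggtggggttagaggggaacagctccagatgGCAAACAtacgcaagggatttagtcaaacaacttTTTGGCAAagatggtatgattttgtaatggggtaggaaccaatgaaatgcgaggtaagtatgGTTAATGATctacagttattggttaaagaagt
Afp, chr5:90490464-90490713: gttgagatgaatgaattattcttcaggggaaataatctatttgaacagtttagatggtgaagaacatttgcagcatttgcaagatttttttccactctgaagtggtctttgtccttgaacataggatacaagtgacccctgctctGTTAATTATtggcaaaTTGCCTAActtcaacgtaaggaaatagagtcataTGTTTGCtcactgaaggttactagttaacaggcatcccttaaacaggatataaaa

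The shared peaks of the Alb and Afp locus lay inside the genes. The Alb window held 8 peaks in replicate 1 and 5 in replicate 2, of which 3 were shared. The nearest shared peak to the Alb TSS lay 6553 bp downstream in coding exon 7, with scores of 82 and 86 in replicates 1 and 2 and a hotspot at the ceiling in both. Replicate 1 alone had a peak 29567 bp upstream of the Alb TSS, between genes, with a score of 23. It also had 3 weak peaks of its own in intron 6, with scores of 17, 21 and 21. Those scoring 21 overlap each other. Replicate 2 alone had 1 peak in that intron, with a score of 29. In intron 7 of Afp a stronger peak scored 66 and 92 and a weaker one shortly before it scored 33 and 29. These values are shared by both genes, whose windows overlap. Afp counted as having a promoter peak only through an annotated internal TSS near its 3′ end: that peak lay 16973 bp downstream of the 5′-most TSS and scored 23 and 36, percentiles of 6.43 and 23.8. The stronger exonic and intronic peaks are shown here as the best-ranked shared sites of the locus, on the plus strand of GRCm38, with capitals as for the promoters. The first holds a CEBP string and the second none of the strings.
Alb coding exon 7, chr5:90467376-90467525: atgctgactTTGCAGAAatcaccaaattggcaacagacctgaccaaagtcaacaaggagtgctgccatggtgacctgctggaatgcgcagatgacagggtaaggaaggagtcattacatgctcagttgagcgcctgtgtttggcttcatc
Afp intron 7, chr5:90500856-90501005: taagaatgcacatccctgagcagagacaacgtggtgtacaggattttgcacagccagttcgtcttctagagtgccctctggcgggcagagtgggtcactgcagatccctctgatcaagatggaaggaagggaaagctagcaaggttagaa

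Transferrin, which carries iron to dividing cells such as erythroid precursors, had the best-ranked promoter of the 10 genes. Trf lies on the minus strand of chromosome 9 from 103204001 to 103230444, and its promoter peak at chr9:103230256-103230405 scored 60 and 64, with mean percentile 66.9. The hotspots around it were at the ceiling and measured 544 and 836 bp. A further shared peak 386 bp upstream of the 5′-most TSS scored 39 and 54. Replicate 2 alone had a peak 106 bp upstream (score 47) and one at an internal TSS (score 38). The readthrough gene Gm20425 starts in the same place, so the promoter peak cannot be assigned to Trf alone. A stretch of it, on the plus strand of GRCm38 and therefore opposite to the direction of transcription, is shown because it is 1 of only 2 shared peaks in all windows with a FOXA string. Capitals mark the FOXA and CEBP strings.
Trf promoter peak, chr9:103230345-103230368: TGTTTGCgcagtccaaTTGCCCAA

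Within the Trf body the highest shared peak lay in an intron 22414 bp downstream of the TSS, at chr9:103207956-103208105, and scored 106 and 107. Weaker ones lay in intron 16 (40 and 34) and intron 4 (37 and 51). Upstream, shared peaks at 2726 and 4446 bp scored 43 and 47, and 35 and 47. The best-ranked shared peak of the whole window (131 and 131) lay at the promoter of the neighbour Srprb, which encodes a subunit of the signal recognition particle receptor. In all, the window held 15 peaks in replicate 1, 12 in replicate 2 and 10 shared ones.

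Transthyretin carries thyroid hormone and the retinol-binding protein in plasma. Ttr, on the plus strand of chromosome 18 from 20665280 to 20674321, had no shared peak in its body. Its nearest shared peak lay 22190 bp upstream of the TSS, the farthest of the 10 genes, and only 13.4% of all protein-coding genes had theirs at least as far away. That peak belonged to a group of 5 between 22190 and 25130 bp upstream, in the order of increasing distance with scores of 70 and 78, 38 and 57, 76 and 91, 52 and 69, and 58 and 59 in replicates 1 and 2. In replicate 2 the 4 outer peaks lay in a single hotspot of 1595 bp at the ceiling, while replicate 1 had hotspots of 517 and 525 bp at the ceiling and one of 218 bp at 2.22. Close to the gene, replicate 1 alone had peaks 950 bp downstream of the TSS in intron 1 (score 32) and 2970 bp downstream in intron 2 (score 27). Neither was called in replicate 2.

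**Figure D2:**
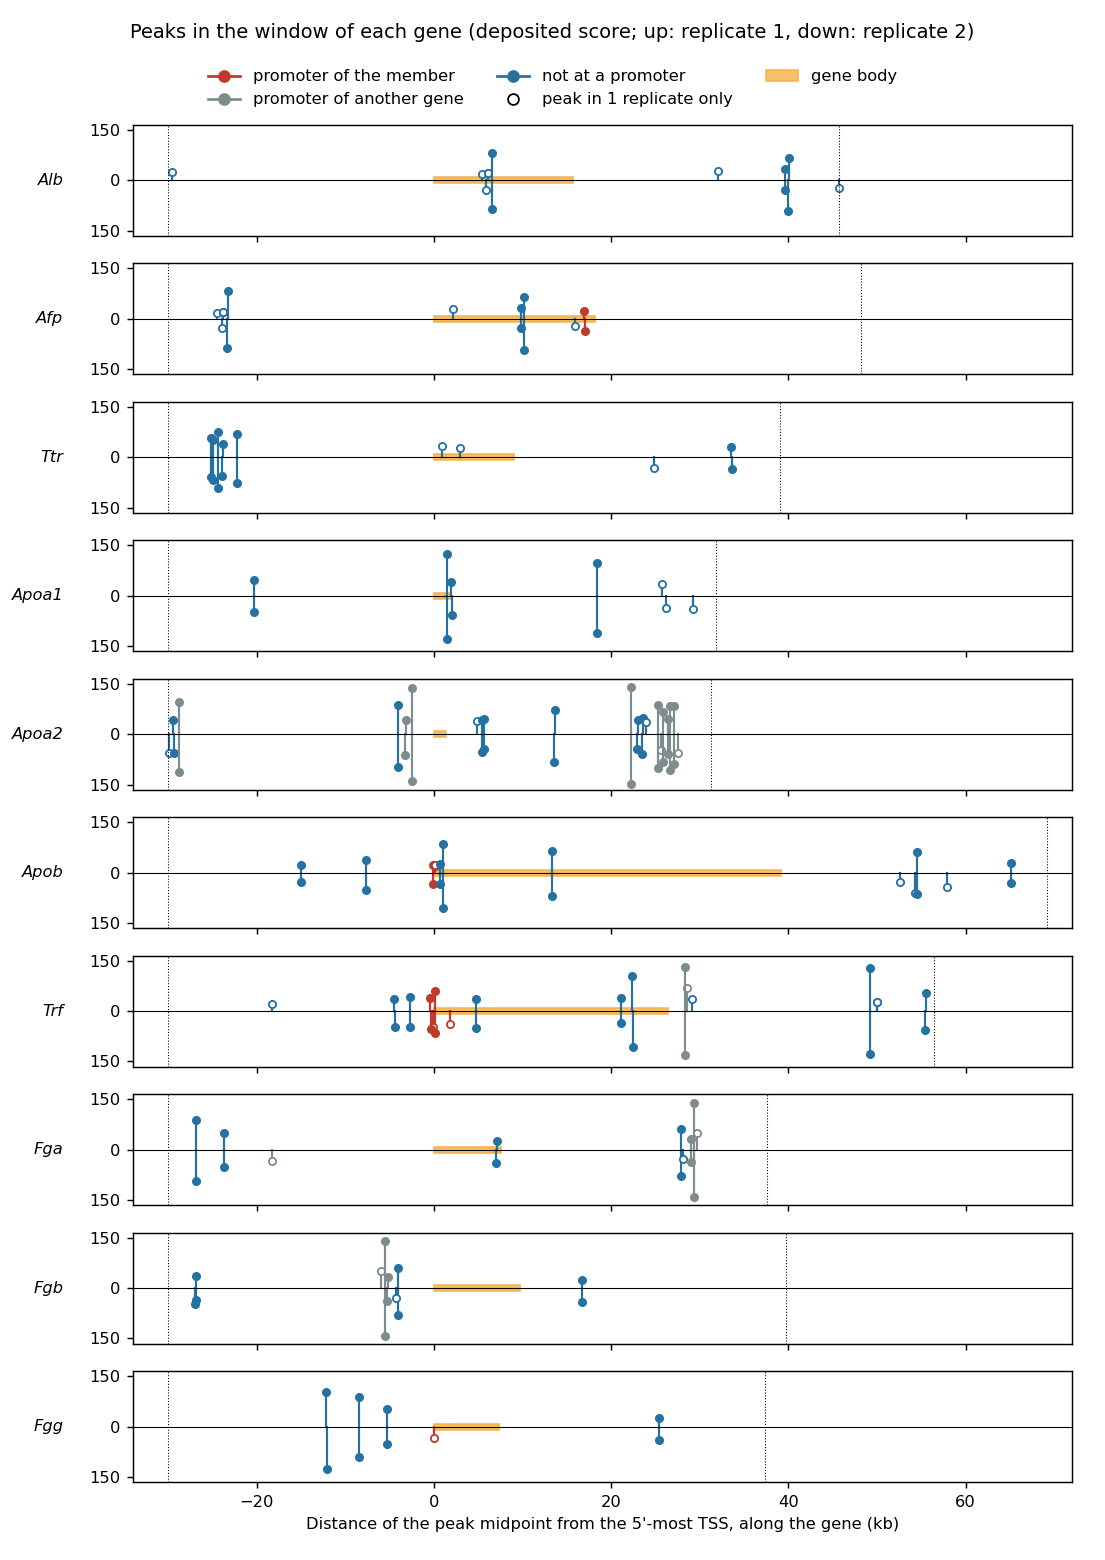
Peaks in the window of each gene, with the distance of the peak midpoint from the 5′-most TSS along the direction of transcription in kb (x axis) and the deposited score (y axis), replicate 1 upwards and replicate 2 downwards. Filled points are shared peaks, open points occur in 1 replicate only, orange bars are gene bodies and dotted lines are the window ends. Red points at a member's promoter occur at Afp, Apob, Trf and, open, at Fgg, and peaks at promoters of other genes crowd the Apoa2 window.

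The 3 apolipoprotein genes, whose products form the protein coat of plasma lipoproteins, had different surroundings. Apob, the scaffold of very low density and low density lipoproteins, lies on the plus strand of chromosome 12 from 7977648 to 8016835. It had a weak promoter peak, 98 bp upstream of its TSS in replicate 1 and 118 bp upstream in replicate 2, with scores of 23 and 34 (percentiles 6.43 and 19.9). Replicate 1 alone had 2 more peaks just downstream, which overlap each other, with scores of 21 and 23. The hotspots there were far below the ceiling, at 2 and 2.35. A much better-ranked peak stood 1062 bp downstream in intron 2 and scored 86 and 106, with both hotspots at the ceiling, and another in intron 14 scored 65 and 71.

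Apoa1, the main protein of high density lipoproteins, occupies 46228580 to 46230466 on the plus strand of chromosome 9. It had no promoter peak. Its last exon held the best-ranked peak away from protein-coding promoters in all windows, except one in an exon of Rab6b near Trf (128 and 129). This peak in coding exon 4, 1530 bp downstream of the TSS, scored 125 and 128, and the hotspots over it measured 943 and 995 bp. A second shared peak, 1970 bp downstream and just past the gene end, scored 41 and 57. Farther along, a shared peak nearest to the TSS of the neighbour Apoa4 scored 97 and 111 and lay 18390 bp downstream of the Apoa1 TSS. Apoa2, another protein of high density lipoproteins, at 171225054 to 171226379 on the plus strand of chromosome 1, had no peak in its body in either replicate. Its nearest shared peak, 2464 bp upstream (136 and 139), was at the promoter of Tomm40l. Of the 16 shared peaks in the Apoa2 window, 9 lay at promoters of other genes.

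The sequences of the Apob promoter peak, of the Apob and Apoa1 peaks downstream of the TSS and of the bases before the Apoa1 start are given to set a weakly called promoter, the better-ranked sites inside both genes and a promoter without a peak side by side. All are on the plus strand, the peaks from GRCm38 and the Apoa1 promoter, cut where the GENCODE gene begins, from RefSeq (GRCm38.p6). Capitals mark FOXA and CEBP strings. Both promoters hold such strings, and both sites inside the genes hold none.
Apob promoter peak, chr12:7977476-7977625: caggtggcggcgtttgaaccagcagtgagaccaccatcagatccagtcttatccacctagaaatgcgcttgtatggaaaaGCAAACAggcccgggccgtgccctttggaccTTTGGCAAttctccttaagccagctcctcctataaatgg
Apob intron 2, chr12:7978636-7978785: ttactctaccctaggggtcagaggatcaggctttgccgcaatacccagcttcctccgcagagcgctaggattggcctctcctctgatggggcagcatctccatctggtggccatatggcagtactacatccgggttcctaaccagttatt
Apoa1 promoter, chr9:46228380-46228579: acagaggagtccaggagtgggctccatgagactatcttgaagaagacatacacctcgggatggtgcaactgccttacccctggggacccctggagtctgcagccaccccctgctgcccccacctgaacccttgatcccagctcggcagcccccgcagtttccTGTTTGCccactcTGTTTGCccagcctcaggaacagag
Apoa1 coding exon 4, chr9:46230036-46230185: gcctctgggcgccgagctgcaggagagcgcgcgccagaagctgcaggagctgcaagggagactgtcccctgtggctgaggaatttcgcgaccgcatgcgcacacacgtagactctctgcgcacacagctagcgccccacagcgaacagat

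The chains of fibrinogen, the precursor of fibrin clots, are encoded next to each other on chromosome 3, Fgg at 83007724 to 83015049 and Fga at 83026076 to 83033627 on the plus strand and Fgb at 83040141 to 83049863 on the minus strand. Their windows overlap and share peaks. Inside the 3 gene bodies there was a single shared peak, in coding exon 6 of Fga, 7074 bp downstream of its TSS, with scores of 25 and 41. Better-ranked shared peaks flanked the cluster. On the Fgg side they lay 12134, 8474 and 5314 bp upstream of the Fgg TSS and scored 103 and 125, 89 and 92, and 51 and 51. On the Fgb side a peak 4067 bp upstream of the Fgb TSS scored 60 and 80, and the Plrg1 promoter just beyond it, which belongs to a splicing factor gene, scored 140 and 142. The upstream Fgg peak with the highest score is shown on the plus strand of GRCm38. It is the best-ranked site of the cluster that is not at the promoter of a protein-coding gene. None of the FOXA, HNF1, HNF4, CEBP, ONECUT or GATA strings is in it.
Upstream of Fgg, chr3:82995516-82995665: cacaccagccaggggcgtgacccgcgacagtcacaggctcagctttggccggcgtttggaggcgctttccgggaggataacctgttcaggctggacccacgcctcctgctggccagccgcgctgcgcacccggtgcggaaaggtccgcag

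By the median over the 10 genes, shared peaks were somewhat sparser than at other genes and lay farther from the TSS. Neither median was set against genes of similar CpG content. Every window held at least 3 shared peaks, and 89.6% of all protein-coding genes had 1 or more in theirs. A shared peak inside the gene body was found at 6 of 10 genes, against 75% of all. Per 100 kb of window the number of shared peaks was 3.96 for Alb, 5.12 for Afp, 5.94 for Fgg, 6.46 for Apoa1, 7.17 for Fgb, 8.07 for Apob, 8.69 for Ttr, 8.88 for Fga, 11.6 for Trf and 26.1 for Apoa2. The members' median was 7.62 and that of all genes 9.38. Windows of neighbouring members overlap, so some peaks enter the members' median through several genes. With each listed peak counted once, the windows held 56 shared peaks in 588 kb, 16 of them in the Apoa2 window. This pooled count is a different measure from a median over genes and was not set against one. Single lists of peaks, not restricted to shared ones, gave members' medians of 10.3 and 10.1 (10.2 ± 0.148, SD, n = 2). Apoa2 stood apart from the other 9, and 94.5% of all genes had a lower density than it. Its window holds 6 other protein-coding genes, and 7 of its 16 shared peaks were not at their promoters. At 6 members no shared peak lay at the promoter of another gene, and the share of all genes for which this holds is not given here.

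The distance from the 5′-most TSS to the nearest shared peak had a median of 4690 bp over the members and of 124 bp over all genes. It was 98 bp for Apob and 114 bp for Trf, the genes with a peak at that TSS. At the other 8 it ran from 1530 bp for Apoa1 to 22190 bp for Ttr, with 9813 bp for Afp and 6553 bp for Alb. This distance follows in part from the promoter counts, since a gene with a promoter peak has a short one by construction.

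**Figure D3:**
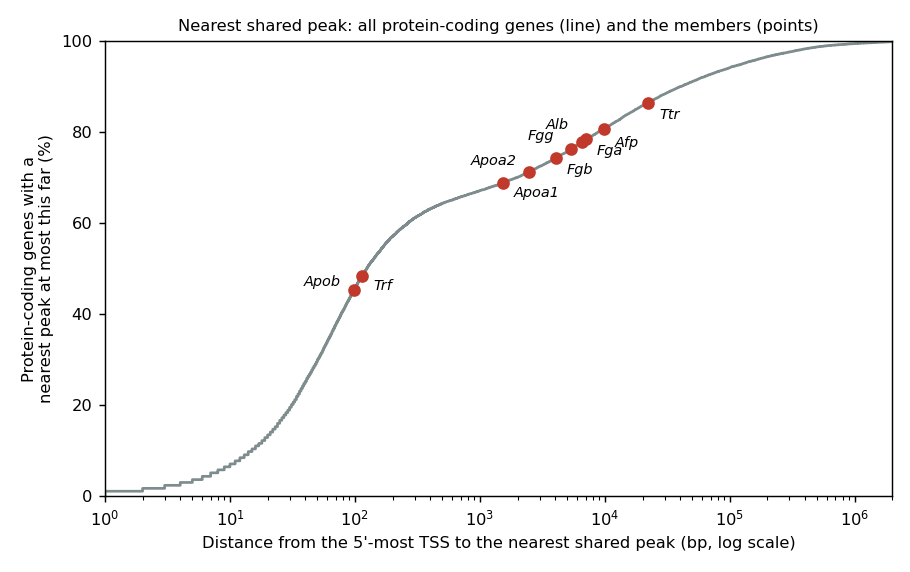
Percentage of protein-coding genes (y axis) whose nearest shared peak lies at most the given distance from the 5′-most TSS (x axis, bp, log scale), as a line over 21728 genes, with the 10 plasma protein genes as points on it. Apob and Trf stand on the steep part at 98 and 114 bp, and the other 8 on the flat part between 1530 and 22190 bp.

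Counting each listed peak once, the windows covered 588 kb and held 74 peaks in replicate 1 and 72 in replicate 2. Every peak overlapped a hotspot, and overlapping peaks of 1 list stayed separate. Of the 74 and 72 peaks, 56 (75.7%) and 57 (79.2%) overlapped a peak of the other replicate. This is 77.4% ± 2.47 (SD of both directions, n = 2), where the whole lists had 79.5% and 70.3%, in the opposite order. Both percentages describe the same overlap seen from each list, so this SD is not a spread between independent measurements. Only starts of protein-coding genes counted as promoters, so a peak at the start of a noncoding gene is listed as away from promoters. Of the 56 shared peaks, 4 were at promoters of the members, 12 at promoters of other genes and 40 away from promoters. Of these 40, 11 lay in exons or introns of members. By feature, 18 lay in introns, 18 between genes and 4 in coding exons. Peaks called in 1 replicate only ranked low, with a median score of 28 in replicate 1 and 38 in replicate 2, against 53.5 and 59 for shared ones.

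Most shared peaks of the windows had the higher score in replicate 2. It scored higher at 51 of the 56 sites (91.1%), lower at 2 and equal at 3, and over all shared peaks of the genome it scored higher at 83.8%. Replicate 1 was higher at the weaker peak in Afp intron 7 (33 against 29) and in Trf intron 16 (40 against 34). A mean percentile of at least 90 was reached by 10 of the 56 peaks (17.9%, all shared peaks 12.7%), a limit chosen after the values were seen. Of these 10, 5 were at promoters of other genes and 0 at promoters of members. The share at promoters among all shared peaks of this rank is not given here. Hotspots in the windows numbered 67 and 61, of which 30 (44.8%) and 28 (45.9%) were at the ceiling, against 33.3% and 34.1% of all hotspots.

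**Figure D4:**
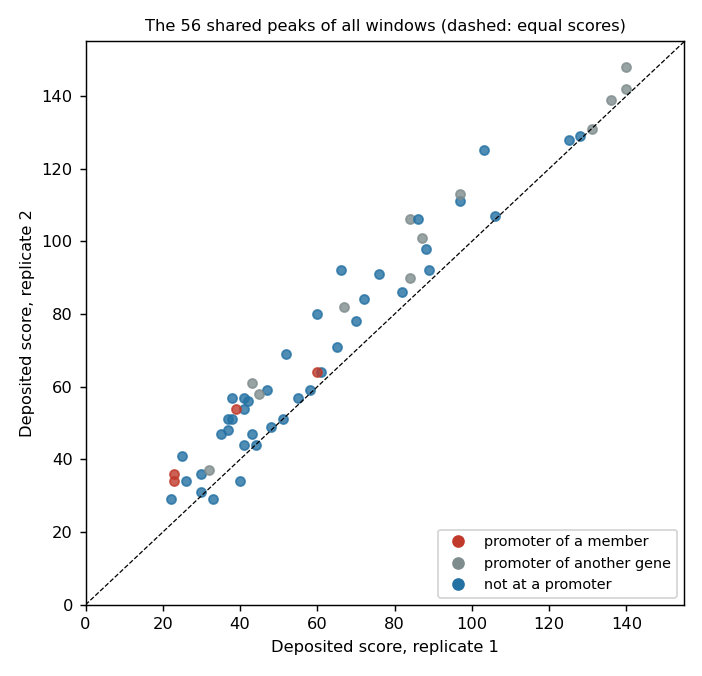
Deposited score in replicate 1 (x axis) and replicate 2 (y axis) of the 56 shared peaks in the windows, without unit, coloured by position, with a dashed line at equal scores. Nearly all points lie on or above the line, and the 4 promoter peaks of the members (red) have scores of at most 64.

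Promoters and peaks differed in the strings they held, but a promoter as cut here is also longer than a peak of 150 bp. Each is set beside a background of its own length. Of the 8 members with a promoter in the RefSeq table (all but Ttr and Trf; 250 bases before to 50 after the start, taking the start within 77 bp of the 5′-most GENCODE TSS), 7 held a FOXA, HNF1, HNF4, CEBP or ONECUT string, against 20.3% of 32851 promoters in that table. FOXA strings were in 5 of 8 (Alb, Afp, Apoa1, Apoa2 and Apob; all promoters 8.48%), CEBP strings in 5 (Alb, Afp, Apob, Fga and Fgb; 10.8%) and HNF1 strings in 3 (Alb, Afp and Fga; 0.801%). A second RefSeq promoter of Apoa2, which starts 3490 bp from its GENCODE TSS, was left out of these counts. It held 2 CEBP matches, so counting it would add Apoa2 to the genes with a CEBP string. A shared peak assigned here to the Tomm40l promoter (43 and 61) lies within 500 bp of that start. Apoa2 thus lacked a promoter peak by its GENCODE starts, but not by this RefSeq start. HNF4, ONECUT, GATA and SP/KLF (GGGCGG) strings were in 0 of 8, against 0.475%, 2.05%, 11.2% and 35.7%. The 32851 promoters were not matched to the CpG-poor promoters of the members. The part of CpG content in the shares of this paragraph was not tested. The Fgg promoter held only the nuclear receptor string AGGTCA (1 of 8; 16.3%). TEAD strings (CATTCC) were in 2 of 8, at Fga and Fgb (14.7%), while AP-1 (TGANTCA, at Fgb) and CTCF (CCANNAGGG, at Apoa2) strings were in 1 each (7.81% and 5.98%).

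In the 56 shared peaks of the windows, by contrast, a string of the 5 liver families was as frequent as in all 162506 shared peaks of the assembled chromosomes, at 10.7% in both, a pooling of families chosen after the values were seen. FOXA strings were in 2 peaks, the Apob and Trf promoters (3.57%, all shared peaks 4.77%). CEBP strings were in 6 (10.7%, 5.28%), at these 2 promoters, in Alb exon 7, upstream of Apob, at Tomm40l and between Fgb and Plrg1. No peak held an HNF1, HNF4, ONECUT or AP-1 string (all shared peaks 0.261%, 0.172%, 0.74% and 4.66%). These counts use the replicate 1 interval of each shared peak. In the Apoa2 window the replicate 2 interval of a shared peak held an AP-1 string, and that of another a GATA string. The string AGGTCA was in 12 peaks (21.4%, 11.4%), TEAD in 10 (17.9%, 10%), SP/KLF in 7 (12.5%, 15.1%), CTCF in 6 (10.7%, 6.01%) and GATA in 1 (1.79%, 4.64%). These are counts of letters in 1 set of neighbouring sites, were not tested, and a match is not a bound site. The end of a FOXA match can also be the start of a CEBP match.

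Other plasma protein genes resembled the members at their promoters. Of 47 found in the annotation, 13 (27.7%) had a promoter peak in both replicates, among them Fetub, Apoh, Rbp4 and Vtn and not the albumin relatives Gc and Afm or Ahsg, and 3 had one in replicate 2 only. Like the members they had poor CpG content, with a median ratio of 0.18, and a distant nearest shared peak, with a median of 5086 bp. Of the genes that handle these proteins and their cargo, 13 of 16 (81.2%, all genes 70.3%) had such a peak, among them Mttp, which loads lipid onto apolipoprotein B, and the receptors Lrp1 and Lrp2, and without Lcat, Lipc and Fcgrt. Liver transcription factors had 15 of 17 (88.2%), among them Hnf4a, Foxa1 and Foxa2 and without Nr1h4. At the 5′-most TSS alone the factors had 11 of 17 (64.7%), without Hnf4a and Foxa2, where all genes had 65.2%. There the handling genes had 12 of 16 (75%) and the other plasma protein genes 10 of 47 (21.3%). The listed transcription factors also act outside the liver. The median CpG ratio was 0.45 for the handling genes and 0.57 for the factors, but lists with nearly equal ratios had different counts, with 0.19 for erythroid markers (57.1%) and 0.2 for mature hepatocyte markers (0%). Differences between the lists, and the part of the CpG ratio in them, were not tested.

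**Figure D5:**
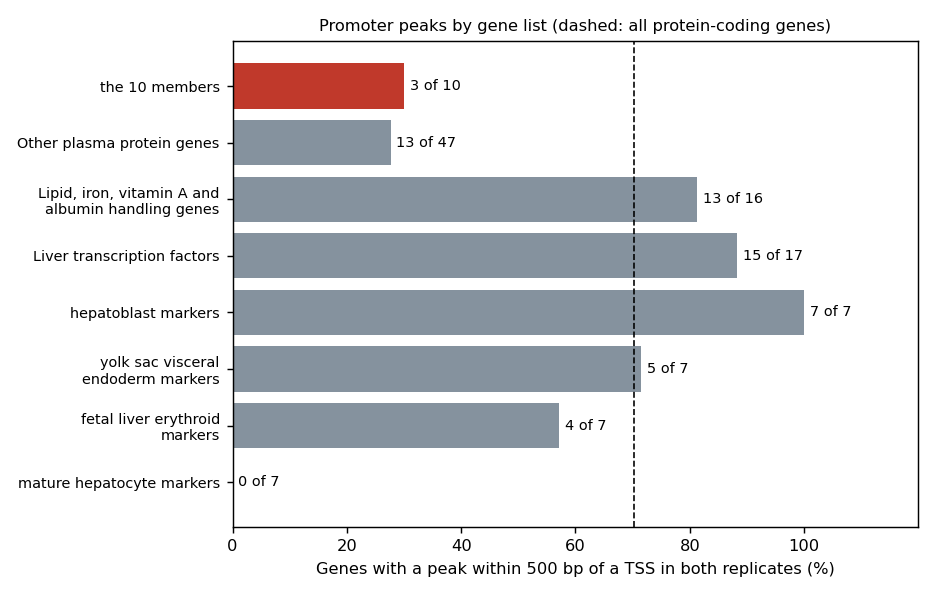
Percentage of genes with a peak within 500 bp of an annotated TSS in both replicates (x axis), for the 10 plasma protein genes (red) and 7 lists of related genes (grey), with the number of genes beside each bar and a dashed line at 70.3%, the share of all protein-coding genes. The members, other plasma proteins, erythroid and mature hepatocyte genes are left of the line at 3 of 10, 13 of 47, 4 of 7 and 0 of 7, the other lists are right of it, and some lists share genes.

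The window ends cut through the Apoa2 and fibrinogen neighbourhoods. The last shared peaks inside a limit of 30 kb included one 28976 bp from Trf (55 and 57) and one 26813 bp from Fgb (37 and 48). Just outside lay one 31034 bp from Alb, the peak at the internal Afp TSS (23 and 36), one 30411 bp from Fga, the upstream Fgg peak (103 and 125), and one 30873 bp from Fgb (60 and 79). The Apoa2 window was cut within dense peaks, with shared peaks 29349 bp (42 and 56) and 30369 bp (35 and 47) from the gene.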

How the data were processed

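DNase-seq intervals from both replicates were used as deposited on mm10, each list made from 1 replicate, per the file headers. Software for alignment and peak calling was not given in the sources used here. The authors' peak score is a whole number of unstated construction. The deposited hotspot value is a −log10 q value, from 1.3 to 100. Depth is unknown, so no interval for counting error is given.

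Genes came from GENCODE M21, 1 record per symbol, and sequences from GRCm38 or RefSeq (GRCm38.p6). Python 3.11.15, numpy 2.4.6 and matplotlib 3.10.9 were used. Peaks were placed by overlap with windows of 30 kb, and features by midpoint, a member's own TSS first, a rule set after the peaks were seen. Promoters, exons and introns were those of protein-coding genes only. With 1 group no test was made; counts stand beside those of all genes. Overlap searches were checked on simulated data. Members and lists were chosen with earlier results of these data known. All members were named, with promoter peaks, nearest peaks, the 3 best-ranked shared peaks of a window and others that place them; of other lists, up to 4 genes with and 3 without a promoter peak, in list order. Some genes that this rule selects are left out of the text. One further listed gene was not matched by symbol. Alternatives were other promoter windows, flanks, overlaps, a stricter score limit and each replicate alone.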

Additional observations from a re-analysis of the deposited data

How the results depend on the processing

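The number of members with a promoter peak in both replicates was 3. It became 1 (Trf) in the better-scoring 50% of each list and 5 with a promoter window of 2500 bp. That window added Apoa1, by the peak in its coding exon 4, and Apoa2, by the peak at the Tomm40l promoter. The number was 3 to 4 when each replicate was left out in turn and 2 at the 5′-most TSS alone. The 56 shared peaks became 32 in the better-scoring 50% and 30 with a flank of 10 kb, 53 with an overlap of 50% and 82 with a flank of 50 kb, and single lists gave 72 to 74. The median density of 7.62 per 100 kb became 7.21 with an overlap of 50%, 3.84 in the better-scoring 50%, 8.15 with a flank of 10 kb and 8.14 with one of 50 kb, and 10.1 to 10.3 in single lists. The shared percentage of 75.7% became 71.6%, 91.4% and, with a flank of 10 kb, 71.4%, and 76.6% with a flank of 50 kb. In the stricter set and the shorter flank fewer peaks are counted by construction. The densities here are set against no background of their own setting. The same holds for the promoter counts with 2500 bp, in the better-scoring 50% and in single replicates.

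No paired analysis was possible because the samples form 1 group. The lists differ in length and the depth is unknown, and the part of either in a peak missing from 1 list was not tested.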

Other observations

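Strings of the CTCF core (AGGGGGC, besides it AGGTGGC, likewise AGAGGGC, and finally AGATGGC, on both strands, overlapping the CTCF string above) were counted after the sequences of the strongest peaks had been read. They were in 13 of the 56 shared peaks (23.2%), against 24% of all shared peaks. Among peaks away from promoters with a mean percentile of at least 70 they were in 4 of 15 (26.7%), against 33.6% of all such peaks, so neither count was above the background.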
